A study of Lactuca sativa with 12 samples.

Results

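Leaves of lettuce grown with cadmium and selenium nanoparticles together (CdSeNP) were compared with leaves of untreated plants (CK), gene by gene, over all 588 genes that the authors' deposited table for this pair of groups lists. These are the authors' own DESeq2 calls, made where the adjusted p was below 0.05 and the log2 fold change beyond 1 in either direction. They make up 588 of the 2264 genes listed for any pair of groups, and 2.57% of the 22856 genes tested between CdSeNP and CK. Of the 588, 285 were higher in CdSeNP (1.25% of the genes tested) and 303 were lower (1.33%). Every member had to differ between these 6 libraries to be listed, so the CdSeNP and CK values below describe the calls and give them no further support.

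The study measured poly(A)-selected RNA of whole leaves by Illumina sequencing in 12 libraries, 3 for each of 4 groups. All plants were of the cultivar Red oak-leaf, grown in hydroponic Hoagland solution, treated from an age of 4 weeks and sampled at the 6-leaf stage at 1.5 months, and the labels put all libraries in batch 1. CK received neither agent, Cd was given 10 mg/L of cadmium, SeNP was given 3 mg/L of selenium nanoparticles of biological synthesis, and CdSeNP had both agents at the same doses. The protocol names the cadmium dose as a hydrated chloride and the design text as cadmium, so the dose of the metal itself is uncertain.

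Cadmium enters plants partly through carriers for iron, zinc and other divalent metals, and it disturbs iron supply. In Arabidopsis, a shortage of iron raises a group of basic helix-loop-helix (bHLH) transcription factors and the genes for iron reduction and transport, and lowers the iron store ferritin. Chloroplasts hold most of the iron of a leaf, in the photosystems and in iron-sulfur proteins. Selenium nanoparticles are tested as an additive that may ease metal stress, and the comparison of CdSeNP with CK asks how far leaves under both agents stand from untreated ones.

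Library totals, recovered from the ratio of counts to FPKM (fragments scaled to gene model length and library total), were 26.7 to 27.2 M reads in CK and 23.8 to 28.6 M in CdSeNP. CK 2 stood apart from the other controls. The chi-square per degree of freedom over the listed genes was 39.7 between CK 1 and CK 2 and 33.8 between CK 2 and CK 3, against 9.89 between CK 1 and CK 3 and 2.76 to 7.03 within CdSeNP. To show where this touches a result, the place of a control library is given on a log2 scale that is 0 at the mean of the other controls and 1 at the CdSeNP mean. Over all 588 genes the median place of CK 2 was 0.135 (quartiles -0.137 and 0.399). In whole leaves, fewer cells of a type and less RNA per cell cannot be told apart. Values after ± are SDs over the 3 libraries of a group. The deposited tables hold no standard errors, and each SE beside a fold change was computed here from the authors' fold change and p.

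Most of the differences were modest, and the few very large ones were increases. The median log2 fold change was 1.38 among the higher genes and -1.30 among the lower ones, and 60 higher but 37 lower genes reached an absolute log2 of 2. The 3 libraries of one group lay wholly outside the range of the other for 581 of the 588 genes, which were all called for a difference between these libraries, so nothing is read from this count. The same holds for each remark below that the groups of a gene were apart or did not overlap. Of the members, 57 reached 100 FPKM in the group where they were higher, and 38 of these were lower in CdSeNP. Word lists of gene functions held 237 of the members, and 351 were on none. Transcription factors made up 56 of the 588, with 31 higher and 25 lower, and the AP2/ERF-ERF family was the most numerous with 7 higher and 5 lower.

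**Figure D1:**
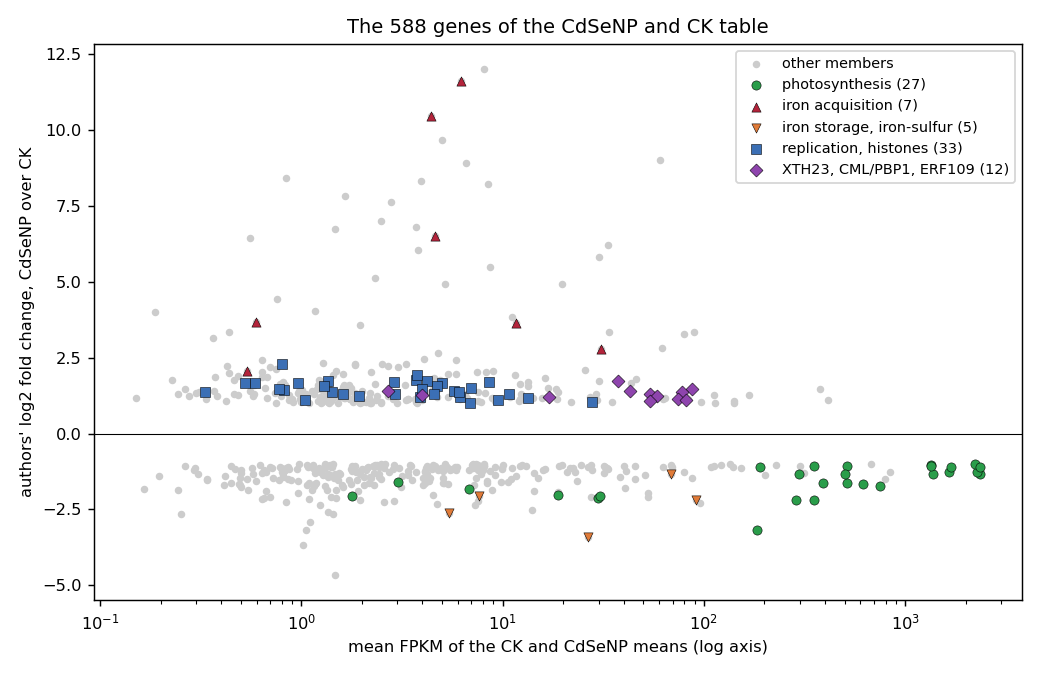
Each point is 1 of the 588 listed genes, with the mean of the CK and CdSeNP mean FPKM on a log axis and the authors' log2 fold change of CdSeNP over CK on the other axis. The gap around 0 is the authors' limit on fold change. All 27 photosynthesis genes lie below 0 and most of them at the right, and the 7 iron acquisition genes lie above 0.

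The Cd and SeNP libraries played no part in choosing the 588 genes, and the deposited table of SeNP against Cd shares no library with the comparison of CdSeNP with CK. It therefore compares the members on other plants, between leaves with cadmium alone and leaves with nanoparticles alone. A gene that both agents moved alike against CK would not be called in it. It calls 171 of the 588 (29.1%), beside 2.18% of the 22978 genes tested there. Among the 89 called members that were higher in CdSeNP than in CK, 86 were higher in Cd than in SeNP and 3 were higher in SeNP. Among the 82 called members that were lower in CdSeNP, 69 were higher in SeNP and 13 were higher in Cd. The gene functions differed widely in this comparison, from 7 of 7 iron acquisition genes and 24 of 27 photosynthesis genes called to 0 of 12 core histones, 0 of 7 calcium genes, 0 of 6 nitrogen genes and 0 of 7 clock genes. A low count does not mean that the single agents left these genes at the CK level. Histone H4 (LOC111909605) had log2 1.43 for Cd and 1.47 for SeNP over CK in the authors' deposited tables, which share the CK libraries. For the nitrate transporter LOC111910637 these were -2.3 and -1.8. Whether the share of members called differs between lists was not tested.

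All 7 listed genes of iron acquisition were higher in CdSeNP, with a median log2 of 3.68 beside 1.38 for all higher genes. The summed level of the 7 was 8.39 to 10.5 FPKM in the CK libraries and 103.8 to 112.4 FPKM in the CdSeNP libraries. Of them, 5 are bHLH regulators, and 3 of these carry the name ORG2, a regulator that iron shortage raises in Arabidopsis. The 4 ORG2 and bHLH100 genes lie near one another on chromosome 5, and reads of near-identical copies may have been shared among them.

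The ORG2 gene LOC111878349 (chromosome 5, 325658829 to 325661149, minus strand) had no counts in any CK library and stood at 12.9, 12.3 and 12 FPKM in CdSeNP 1 to 3. It was thus at least 567.4-fold higher in CdSeNP than a floor of 3 counts summed over the CK libraries. It had no counts in SeNP and 13.2 ± 0.616 FPKM in Cd. A second ORG2 gene, LOC111878326, also had no counts in CK and measured 7.83, 9.51 and 8.98 FPKM in CdSeNP, at least 256-fold over the same floor. The next, LOC111878327, was at 0.139, 0.0695 and 0.0354 FPKM in CK and 1.14, 1.07 and 1.12 FPKM in CdSeNP. In each of the 3 the groups were fully apart. Between SeNP and Cd the authors' deposited table called all 3 higher in Cd, with log2 values of SeNP over Cd of -11.60, -10.64 and -3.21, of which the first and second depend on how DESeq2 treats a group without counts.

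The transcription factor bHLH100 (LOC111878325), a close relative of ORG2 in Arabidopsis, measured 0.0936, 0 and 0.191 FPKM in CK and 8.66, 9.21 and 9.56 FPKM in CdSeNP. The authors' deposited table gave it log2 6.51 with adjusted p 5.5e-35, and the computed SE was 0.51. The factor bHLH47 (LOC111906812), called POPEYE in Arabidopsis where it governs part of the iron shortage response, was at 1.78, 1.5 and 1.62 FPKM in CK and 21.5, 22.1 and 22 FPKM in CdSeNP. Every CdSeNP library was at least 12.1-fold above every CK library. For this gene the authors' deposited table gave log2 3.65 with adjusted p 3.6e-109, and the computed SE was 0.16. The levels were 22.3 ± 0.992 FPKM in Cd and 2.05 ± 0.171 FPKM in SeNP.

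Iron carriers and a reductase were higher as well. Oligopeptide transporter 3 (LOC111920790, chromosome 7, 16632456 to 16635576), which loads iron into the phloem in Arabidopsis, measured 7.25, 6.59 and 8.5 FPKM in CK and 51, 57.3 and 55.3 FPKM in CdSeNP. Its groups were far apart, and the authors' deposited table gave log2 2.78 with adjusted p 1.0e-111, and the computed SE was 0.12. Ferric reduction oxidase 2 (LOC111894637), known as the root iron reductase of Arabidopsis, was low in these leaves, at 0.183, 0.229 and 0.187 FPKM in CK and 0.766, 0.994 and 0.87 FPKM in CdSeNP, without overlap (in the authors' deposited table log2 2.05 with adjusted p 1.0e-06, and the computed SE was 0.37). Between SeNP and Cd, 7 of the 7 iron acquisition genes were called, all higher in Cd, beside 1.51% of all genes tested that were called higher in Cd. The median place of CK 2 over the 7 genes was -0.03, and all 7 calls remained without CK 2 and in each other refit with 1 library left out.

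The 5 listed genes of iron storage and iron-sulfur proteins were all lower in CdSeNP, with a median log2 of -2.20 beside -1.30 for all lower genes. Their summed level was 298.3 to 327 FPKM in CK and 81.0 to 89.8 FPKM in CdSeNP. Ferritin-4 (LOC111919692, chromosome 8, 17057042 to 17059052), a plastid protein that stores iron, was at 44.2, 59.9 and 41.5 FPKM in CK and 4.94, 4.59 and 5 FPKM in CdSeNP. Every CK library was at least 8.30-fold above every CdSeNP library, and the authors' deposited table gave log2 -3.41 with adjusted p 1.1e-101, and the computed SE was 0.16. A second ferritin, LOC111908574, stood at 163, 138 and 144 FPKM in CK and 38.7, 32 and 32 FPKM in CdSeNP. The next, LOC111879873, also named ferritin-4, stood at 98.3, 99.1 and 92.7 FPKM in CK and 41.3, 39.9 and 40.7 FPKM in CdSeNP. Its CdSeNP libraries were the closest together of the 3 ferritins and lay well under all controls (in the authors' deposited table log2 -1.34 with adjusted p 3.8e-65, and the computed SE was 0.08).

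The nanoparticle libraries give the ferritins a further reading. The first of them measured 83.1 ± 3.9 FPKM in SeNP and 5.84 ± 0.549 in Cd, the second 185 ± 10.4 and 25.6 ± 1.58, and the last 131 ± 1.96 and 51.9 ± 0.718. The NEET protein gene (LOC111903255), whose product carries an iron-sulfur cluster, measured 9.43, 9.91 and 8.25 FPKM in CK and 1.46, 1.66 and 1.64 FPKM in CdSeNP (in the authors' deposited table log2 -2.62 with adjusted p 3.3e-25, and the computed SE was 0.24). The iron-sulfur subunit of succinate dehydrogenase (LOC111908866), a mitochondrial enzyme of respiration, went from 12.2, 11.9 and 12.3 FPKM in CK to 3.47, 2.85 and 3.07 FPKM in CdSeNP. Neither gene had overlapping groups. In the table of SeNP against Cd, 5 of 5 genes of this list were called, all higher in SeNP, beside 0.67% of all genes tested. All 5 calls of CdSeNP against CK remained in each refit without 1 library.

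**Figure D2:**
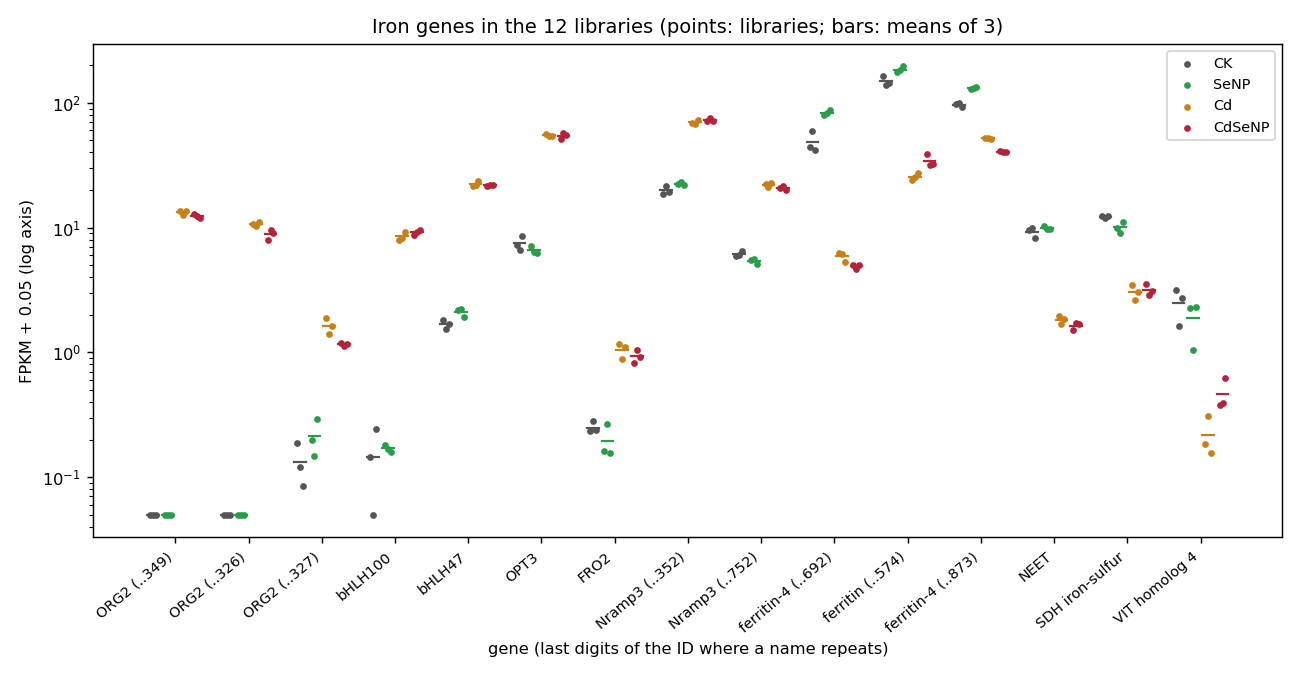
FPKM plus 0.05 on a log axis for 15 iron and metal genes in the 12 libraries, with points for libraries, bars for the means of 3 and colours for the groups. The Cd and CdSeNP points lie close together and far from the CK and SeNP points for most genes, and the ORG2 genes without counts in CK and SeNP lie on the floor of the plot.

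Among 7 metal transporters 4 were higher and 3 lower, and refits left 2 of the 4 higher calls without CdSeNP 3 and without each control in turn. The natural resistance-associated macrophage protein Nramp3, which releases metals from the vacuole in Arabidopsis, was represented by 2 genes. The gene LOC111896352 was at 18.5, 21.6 and 19.4 FPKM in CK and 71.2, 74.9 and 71.3 FPKM in CdSeNP, and LOC111902752 was at 5.84, 5.97 and 6.4 FPKM in CK and 20.6, 21.7 and 19.9 FPKM in CdSeNP. Both were higher in all CdSeNP libraries than in any control. The authors' deposited table gave them log2 1.78 with adjusted p 9.7e-93 and log2 1.68 with adjusted p 5.3e-51 in that order, and the computed SEs were 0.09 and 0.11. A vacuolar iron transporter homolog (LOC111899502), of a family that moves iron into the vacuole, was lower, at 3.1, 1.57 and 2.67 FPKM in CK and 0.327, 0.342 and 0.569 FPKM in CdSeNP. Nramp6 (LOC111892195) also was lower, at 7.07, 7.31 and 8.47 FPKM in CK and 4.1, 3.21 and 3.6 FPKM in CdSeNP.

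Zinc transporters were higher by little. Zinc transporter 1 (LOC111897073) measured 0.797, 0.63 and 0.813 FPKM in CK and 1.29, 1.52 and 2.21 FPKM in CdSeNP, and Cd alone stood at 4.36 ± 0.548 FPKM. It was also called between the cadmium groups, with a log2 of CdSeNP over Cd of -1.33 (adjusted p 1.4e-10 in the authors' deposited table). Zinc transporter 5 (LOC111901856) measured 0.527, 0.503 and 0.7 FPKM in CK and 1.64, 0.905 and 1.2 FPKM in CdSeNP. Its adjusted p in the authors' deposited table was close to the limit (log2 1.03 with adjusted p 0.042, and the computed SE was 0.37), and both zinc transporter calls ended without CK 2 and without 4 other libraries in turn. The squamosa promoter-binding-like protein 7 gene (LOC111906023), in Arabidopsis the regulator of copper shortage, was lower at 7.65, 7.33 and 7.88 FPKM in CK and 2.53, 2.51 and 2.86 FPKM in CdSeNP (in the authors' deposited table log2 -1.62 with adjusted p 1.8e-23, and the computed SE was 0.15).

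Metal chelation was represented by 3 genes for heavy metal-associated isoprenylated plant protein 16, a type of small metal-binding protein, which are neighbours on chromosome 7 within 73.2 kb. All 3 were higher. The gene LOC111914618 measured 19.9, 12.5 and 21.3 FPKM in CK and 44.7, 40.1 and 37.6 FPKM in CdSeNP, and LOC111881395 measured 107, 58.8 and 103 FPKM in CK and 203, 186 and 192 FPKM in CdSeNP. In both, CK 2 was the lowest control and all CdSeNP libraries were above all controls. Refits left 0 of the 3 calls without CK 2 and 0 without CdSeNP 1. No gene of the lists for sulfur and selenium or for phosphate was among the members.

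Another 3 genes, on none of the metal lists and chosen after their values were seen, were also higher. Plastid-lipid-associated protein 14 (LOC111900455, chromosome 5, 191711976 to 191718174) had the smallest adjusted p of the table and measured 15, 12.5 and 14.5 FPKM in CK and 146, 151 and 139 FPKM in CdSeNP. The authors' deposited table gave it log2 3.29 with adjusted p 1.0e-205, and the computed SE was 0.11. The plastid chaperone dnaJ C76 (LOC111886184) went from 16.6, 11.5 and 15.4 FPKM in CK to 111, 111 and 104 FPKM in CdSeNP. Diacylglycerol O-acyltransferase 3 (LOC111914211), an enzyme of triacylglycerol synthesis, had 195, 176 and 197 FPKM in CK and 578, 568 and 541 FPKM in CdSeNP. For all 3 the groups were well apart, and the levels in Cd were 121 ± 8.5, 122 ± 11 and 518 ± 14.4 FPKM in the order given, against 11.3 ± 0.66, 11.3 ± 0.414 and 137 ± 3.29 FPKM in SeNP. All 3 were called higher in Cd than in SeNP, with log2 values of SeNP over Cd of -3.33, -3.34 and -1.82 in the authors' deposited table.

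All 27 listed photosynthesis genes were lower in CdSeNP, with a median log2 of -1.34 beside -1.30 for all lower genes and a range from -3.17 to -1.02. Antenna proteins of the chlorophyll a-b binding family made up 21 of them, and 4 were photosystem I reaction centre subunits. The antenna binds chlorophyll and passes absorbed light to the reaction centres. These genes include the most abundant transcripts of the table. Mesophyll markers, which are antenna and Rubisco small subunit genes, are the defining transcripts of the labelled tissue and were abundant in all libraries, with a summed level of 16920 to 18150 FPKM in CK and 7335 to 7771 FPKM in CdSeNP.

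The lowest log2 of the antenna was that of a type 1 gene of light-harvesting complex II (LOC111895045, chromosome 1, 134932729 to 134933678), at 324, 284 and 374 FPKM in CK and 39.4, 38.7 and 38.6 FPKM in CdSeNP. Its 3 CdSeNP libraries were nearly identical and every control was at least 7.22-fold above them. The authors' deposited table gave log2 -3.17 with adjusted p 3.0e-138, and the computed SE was 0.12. The other groups stood at 41.5 ± 3.25 FPKM in Cd and 355 ± 17.7 FPKM in SeNP. Another 4 genes of the same type and a member without a description sit together on chromosome 4 between 47180363 and 47292612. Of these, LOC111914737 measured 2000.2, 1841 and 1953 FPKM in CK and 860.3, 815 and 798 FPKM in CdSeNP, while LOC111914738 measured 48.6, 44.4 and 49.8 FPKM in CK and 12.1, 11 and 12.1 FPKM in CdSeNP. The CK means of these copies differed by 40.6-fold and both were lower in CdSeNP, and reads shared between near-identical antenna copies leave the split among them uncertain.

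Other antenna genes were lower by smaller amounts, which varied among them. Chlorophyll a-b binding protein 13 (LOC111904852) stood at 1160.5, 1096 and 1151 FPKM in CK and 356, 367 and 359 FPKM in CdSeNP, and the authors' deposited table gave log2 -1.74 with adjusted p 2.2e-114, and the computed SE was 0.08. Chlorophyll a-b binding protein 5 (LOC111895560) stood at 602, 523 and 587 FPKM in CK and 142, 128 and 127 FPKM in CdSeNP (in the authors' deposited table log2 -2.20 with adjusted p 6.5e-99, and the computed SE was 0.10). The gene LOC111919349, which has one of the highest levels of the table, was at 2844, 2925 and 2956 FPKM in CK and 1581, 1520.0 and 1476 FPKM in CdSeNP. No control overlapped any CdSeNP library in these 3 genes. The call of the last ended with library totals in place of the authors' scaling and in the refit without CK 3.

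Photosystem I, which reduces ferredoxin through a chain of iron-sulfur clusters, was represented by subunits II, III, XI and N. Subunit III (LOC111898563) had the highest mean of all members, at 3386, 3343 and 3209.7 FPKM in CK and 1332, 1469 and 1426 FPKM in CdSeNP. Subunit XI (LOC111918291) measured 3218, 2979.9 and 3275 FPKM in CK and 1650.4, 1519 and 1503 FPKM in CdSeNP, and subunit N (LOC111904178) 3328, 3022 and 3137 FPKM in CK and 1391, 1432 and 1400.0 FPKM in CdSeNP. All were lower in each CdSeNP library than in each control. The authors' deposited table gave subunit III log2 -1.32 with adjusted p 1.6e-69, and the computed SE was 0.07. A Rubisco small subunit gene (LOC111908253), for carbon fixation, was lower at 26.7, 28.5 and 34.9 FPKM in CK and 8.48, 7.69 and 7.38 FPKM in CdSeNP. The oxygen-evolving enhancer protein 1 gene (LOC111876697), for water splitting in photosystem II, was lower at 209, 293 and 263 FPKM in CK and 116, 131 and 128 FPKM in CdSeNP.

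Of the 27 genes 24 were called in the table of SeNP against Cd, all higher in SeNP, beside 0.67% of all genes tested there. The median place of CK 2 over the 27 was 0.09, and refits without 1 library left 25 to 27 calls. With library totals in place of the authors' size factors, 22 of the 27 still passed both limits.

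**Figure D3:**
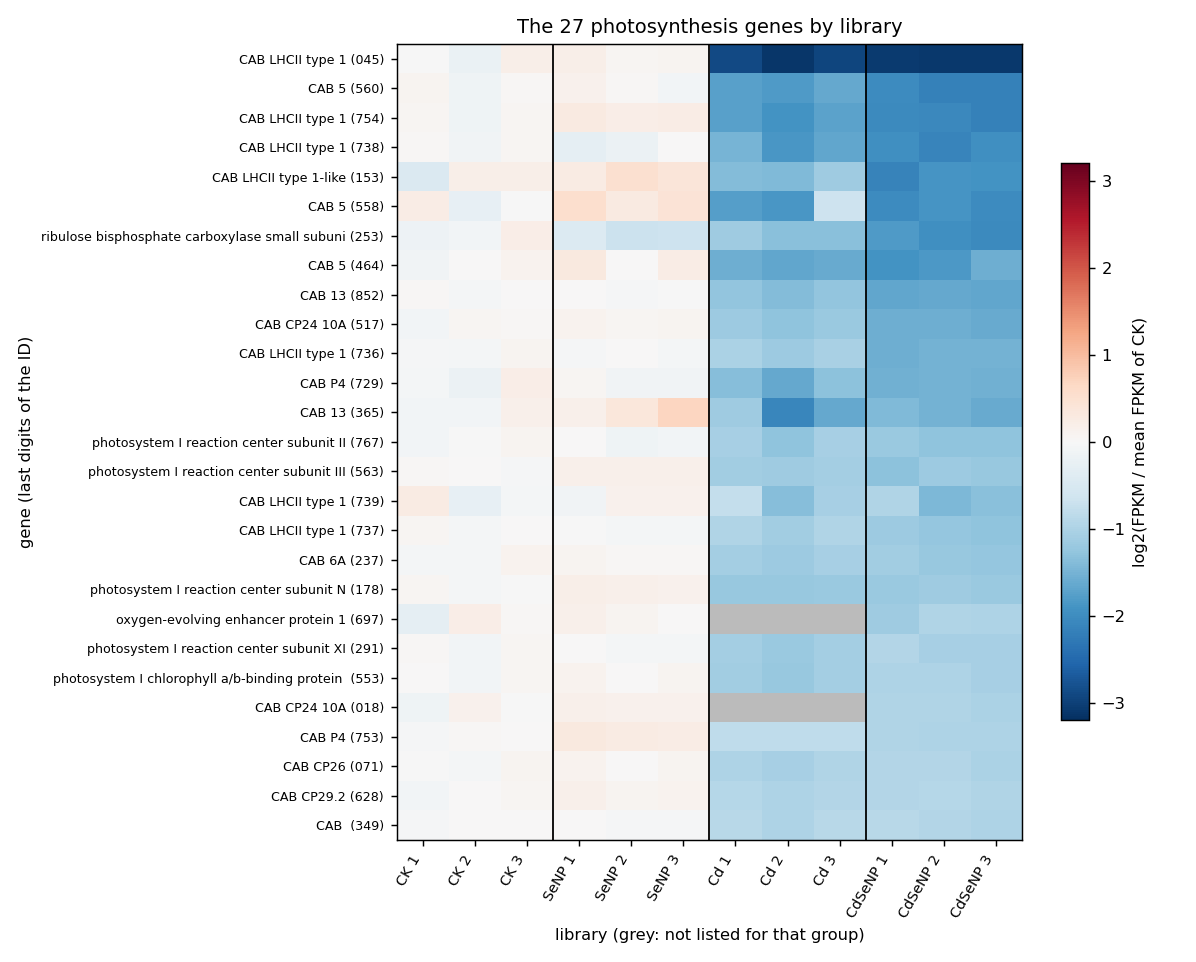
Each row is 1 of the 27 photosynthesis genes and each column 1 of the 12 libraries, and the colour is the log2 of FPKM over the gene's CK mean. CAB stands for chlorophyll a-b binding protein. The CdSeNP columns are blue throughout, the Cd columns are blue where they hold a value, and the SeNP columns are close to the CK columns for most genes. Grey fields are genes that are not listed in any table with Cd.

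Chlorophyll synthesis followed in the same direction, with 3 of 3 listed genes lower. Glutamyl-tRNA reductase 1 (LOC111877439), which starts the pathway, measured 412, 444 and 460.1 FPKM in CK and 187, 191 and 192 FPKM in CdSeNP (in the authors' deposited table log2 -1.30 with adjusted p 1.8e-60, and the computed SE was 0.08). Geranylgeranyl diphosphate reductase (LOC111909735), which makes the chlorophyll side chain, measured 1022, 1213 and 1231 FPKM in CK and 408, 452 and 442 FPKM in CdSeNP. The magnesium-protoporphyrin cyclase gene (LOC111879482), whose enzyme contains iron, measured 813, 891 and 959 FPKM in CK and 462, 479 and 466 FPKM in CdSeNP. In each of them the groups were apart. The cyclase call ended with library totals and in the refits without CK 3 and without CdSeNP 1.

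A few further genes with chloroplast roles, chosen after their values were seen, were lower, while others with plastid names, such as the plastid-lipid-associated protein 14 gene, were higher. The sigma factor sigA (LOC111892130), a nuclear-coded subunit of the chloroplast RNA polymerase, was at 84.3, 89.9 and 98.7 FPKM in CK and 47, 47.2 and 46.2 FPKM in CdSeNP. Carbonic anhydrase, which equilibrates carbon dioxide and bicarbonate, was represented by LOC111904288 at 182, 212 and 221 FPKM in CK and 98.7, 106 and 93.1 FPKM in CdSeNP, and by LOC111920498 at 286, 271 and 341 FPKM in CK and 166, 157 and 144 FPKM in CdSeNP. Plastidial pyruvate kinase 4 (LOC111888822), an enzyme of glycolysis, was lower at 7.37, 7.73 and 8.18 FPKM in CK and 1.51, 1.6 and 1.87 FPKM in CdSeNP (in the authors' deposited table log2 -2.31 with adjusted p 1.1e-52, and the computed SE was 0.15). The groups did not overlap in any of these genes, and the calls of sigA and LOC111920498 ended with library totals.

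Fatty acid desaturases, which place double bonds into membrane lipids and carry iron in their active site, numbered 9, and all were lower. The log2 values lay between -1.49 and -1.09. The delta-7 desaturase gene LOC111910198 of chloroplast galactolipids went from 67.7, 59.3 and 71.4 FPKM in CK to 24.5, 25.4 and 25.6 FPKM in CdSeNP. Delta-9 acyl-lipid desaturase 1 (LOC111917517) went from 320.5, 231 and 304 FPKM in CK to 125, 112 and 117 FPKM in CdSeNP. All 9 had groups without overlap, as did 581 of the 588 members. Between SeNP and Cd 2 of the 9 were called, both higher in SeNP, beside 0.67% of all genes tested. For 8 of the 9 genes CK 2 was the lowest control, and refits without 1 library left 7 to 9 of the calls.

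Enzymes that remove hydrogen peroxide were lower too. Catalase (LOC111878431) measured 1137, 1064 and 1292 FPKM in CK and 536, 491 and 529 FPKM in CdSeNP, which the authors' deposited table gave as log2 -1.26 with adjusted p 4.5e-30, and the computed SE was 0.11. Cytosolic L-ascorbate peroxidase (LOC111897082) measured 414, 415 and 371 FPKM in CK and 192, 203 and 217 FPKM in CdSeNP, with groups as clearly apart as those of catalase. These were the 2 members of the antioxidant list. Neither was called in any other of the authors' comparisons, and the peroxidase call ended with library totals.

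Nitrogen uptake and reduction was lower in all 6 listed genes, with a median log2 of -1.30, the same as that of all lower genes. Nitrate reductase (LOC111893654, chromosome 8, 171627458 to 171632522), which turns nitrate into nitrite, stood at 42.1, 38.1 and 52.1 FPKM in CK and 9.89, 11.9 and 11.3 FPKM in CdSeNP. The lowest control was 3.19-fold above the highest CdSeNP library, and the authors' deposited table gave log2 -2.09 with adjusted p 9.8e-45, and the computed SE was 0.14. Each agent alone left intermediate levels, 29.2 ± 4.26 FPKM in Cd and 19.1 ± 3.24 FPKM in SeNP. The authors' deposited tables called CdSeNP lower than Cd (log2 -1.36, adjusted p 9.4e-18) and SeNP lower than CK (log2 -1.24, adjusted p 2.7e-12), and these comparisons share the CdSeNP or CK libraries with the first one. The gene was not called between Cd and CK or between CdSeNP and SeNP.

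The high-affinity nitrate transporter NRT2.5 (LOC111910637) was at 1.03, 1.13 and 1.18 FPKM in CK and 0.218, 0.352 and 0.276 FPKM in CdSeNP, with 0.237 ± 0.0726 FPKM in Cd and 0.329 ± 0.0846 FPKM in SeNP. The other 4 nitrogen genes belong to the NRT1/PTR family of nitrate and peptide carriers. One of them (LOC111891269) had 18.1, 13.8 and 16.9 FPKM in CK and 8.25, 7.88 and 8.65 FPKM in CdSeNP, and its call ended with library totals and without CK 1. Between SeNP and Cd 0 of the 6 were called, while refits without 1 library left 4 to 6 of the calls of CdSeNP against CK.

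A set of members was higher in CdSeNP than in Cd and in SeNP as well as in CK, as the authors' deposited tables list them. These tables share the CdSeNP libraries, so the values are given side by side and are not independent of one another. The largest was dehydrin Rab18 (LOC111913327, chromosome 2, 166825393 to 166826214), a protective protein that abscisic acid and drying raise in Arabidopsis. It measured 0.595, 1.34 and 1.06 FPKM in CK and 66, 48.3 and 64 FPKM in CdSeNP, against 0.93, 1.2 and 1.16 FPKM in Cd and 6.31, 5.93 and 4.05 FPKM in SeNP. Cd alone was at the level of the controls, SeNP alone was above it, and every CdSeNP library was at least 7.66-fold above every other library. The authors' deposited tables gave log2 5.81 for CdSeNP over CK (adjusted p 2.4e-120), 5.80 over Cd (5.7e-188) and 3.40 over SeNP (2.1e-48). SeNP was higher than Cd by a log2 of 2.41 (adjusted p 6.9e-18) in a comparison that shares no library with that of CdSeNP and CK.

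Xyloglucan endotransglucosylase/hydrolase 23, which cuts and rejoins cell wall xyloglucan, was represented by 5 genes in a row on chromosome 8, between 102948976 and 103122048, a span of 173.1 kb that holds 6 protein-coding genes of the RefSeq annotation. All 5 were higher. The gene LOC111909626 measured 53, 24.7 and 54.7 FPKM in CK and 144, 133 and 117 FPKM in CdSeNP, and LOC111909625 measured 20.6, 8.13 and 20.3 FPKM in CK and 62.2, 60.4 and 53.3 FPKM in CdSeNP. Levels in Cd and SeNP were 40.5 ± 3.82 and 35.9 ± 5.48 FPKM for the first, and 15.1 ± 1.41 and 14.3 ± 2.07 FPKM for the second. CK 2 was the lowest control of all 5 genes, at 35.8 to 46.6% of the lower of the other controls, and no control reached a CdSeNP library. In the authors' deposited tables LOC111909625 had log2 1.74 with adjusted p 9.5e-04 over CK, where the computed SE was 0.43, and a log2 of 2.00 over Cd (adjusted p 6.0e-113). As near-identical neighbours the 5 may have shared reads, and between SeNP and Cd 0 of the 5 were called.

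Calcium sensors moved alongside. The calmodulin-like genes CML38 (LOC111877562) and CML39 (LOC111892932) code for small calcium-binding proteins. CML38 was at 36.2, 16.6 and 37.1 FPKM in CK and 81.5, 81.5 and 72.5 FPKM in CdSeNP, with 23.3 ± 2.06 FPKM in Cd and 16 ± 1.05 FPKM in SeNP. CML39 was at 43.2, 18.9 and 37.9 FPKM in CK and 89.2, 85.9 and 77.4 FPKM in CdSeNP, with 29.1 ± 1.05 FPKM in Cd and 21.9 ± 1.01 FPKM in SeNP. In both, CK 2 was near the SeNP levels and the CdSeNP libraries stood above all controls. Of the 7 members on the calcium list 6 were higher and 1 lower, the latter a CBL-interacting protein kinase 6 gene (LOC111881655). Refits left 1, 1 and 2 of the 6 higher calls without CdSeNP 1, 2 and 3, and 5, 1 and 2 without CK 1, 2 and 3. With all 6 libraries, edgeR left 4 of the 6.

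Stress transcription factors of the ethylene-responsive family were among this set. ERF014 (LOC111918086) was at 7.43, 3.97 and 7.37 FPKM in CK and 16.6, 16.2 and 13.7 FPKM in CdSeNP. Its call ended in the refit without CdSeNP 2, which left 0 of the 7 higher ethylene-responsive factors. One of 3 genes named ERF109, LOC111877684, was at 50.1, 24.4 and 59.1 FPKM in CK and 112, 101 and 97.8 FPKM in CdSeNP, with 47.3 ± 2.98 FPKM in Cd and 23.5 ± 3.26 FPKM in SeNP. The drought and cold factor DREB1D (LOC111900420) was low, at 0.492, 0.0329 and 0.268 FPKM in CK and 1.18, 1.24 and 1.28 FPKM in CdSeNP. In the last, CK 2 was close to 0 and CK 1 the highest control. All CdSeNP libraries of these genes were above all controls.

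Hormone-inactivating enzymes of this set were the abscisic acid hydroxylase CYP707A2 (LOC111898519), of which 2 other listed family members were lower than in CK, and gibberellin 2-beta-dioxygenase 1 (LOC111914174). The former measured 74.6, 36.6 and 79.3 FPKM in CK and 175, 160.1 and 151 FPKM in CdSeNP, and the latter 56.1, 29.1 and 61.4 FPKM in CK and 125, 110.0 and 105 FPKM in CdSeNP. CK 2 was again the lowest control for each, and the authors' deposited table gave adjusted p 0.0065 and 0.014 in that order. The gibberellin 2-beta-dioxygenase 1 call ended in the refits without CK 2 and without CdSeNP 1, and the CYP707A2 call also ended without CdSeNP 1. A leucine-rich repeat extensin-like wall protein (LOC111884960) had 4.57, 3.63 and 5.27 FPKM in CK and 12.2, 12.1 and 11.4 FPKM in CdSeNP, with 3.76 ± 0.308 FPKM in Cd (over CK in the authors' deposited table log2 1.32 with adjusted p 1.3e-12, and the computed SE was 0.17). The receptor kinase THESEUS 1 (LOC111895468), a sensor of cell wall damage in Arabidopsis, had 5.38, 4.03 and 6.2 FPKM in CK and 12.9, 13.1 and 11.6 FPKM in CdSeNP. A disease resistance gene of the At5g66900 type (LOC111883452) had 1.26, 0.581 and 1.26 FPKM in CK and 4.65, 5.41 and 4.93 FPKM in CdSeNP, and 2 more of its kind lie within 32.7 kb of it on chromosome 2 and were higher too.

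In 3 gene families with members in this set, calls ended in refits without 1 library. Those of Rab18, the extensin-like gene, THESEUS 1 and LOC111883452 remained in every such refit. Of these families, all 5 xyloglucan genes, CML38 and CML39 and 2 of the 3 ERF109 genes were called higher in CdSeNP than in Cd, and PBP1, CML19 and the ERF109 gene LOC111903160 were not. The median place of CK 2 was -1.14 for the 5 xyloglucan genes, -1.21 for the 4 CML and PBP1 genes, which include CML19, and -1.66 for the 3 ERF109 genes, on the far side of the other controls from CdSeNP. Refits without CK 2 left 4 of 5, 0 of 4 and 0 of 3 of these calls. Without CdSeNP 1 they left 0 of 5, 0 of 4 and 0 of 3. Refits without CdSeNP 2 left 3, 0 and 0, those without CdSeNP 3 left 4, 1 and 0, those without CK 1 left 4, 4 and 0, and those without CK 3 left 5, 1 and 1. With all 6 libraries, edgeR left 6 of the 8 higher cell wall calls, 4 of the 6 higher calcium calls and 3 of the 7 higher ethylene calls. The losses above therefore mix the change to edgeR with the library left out. Why CK 2 differs was not tested.

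**Figure D4:**
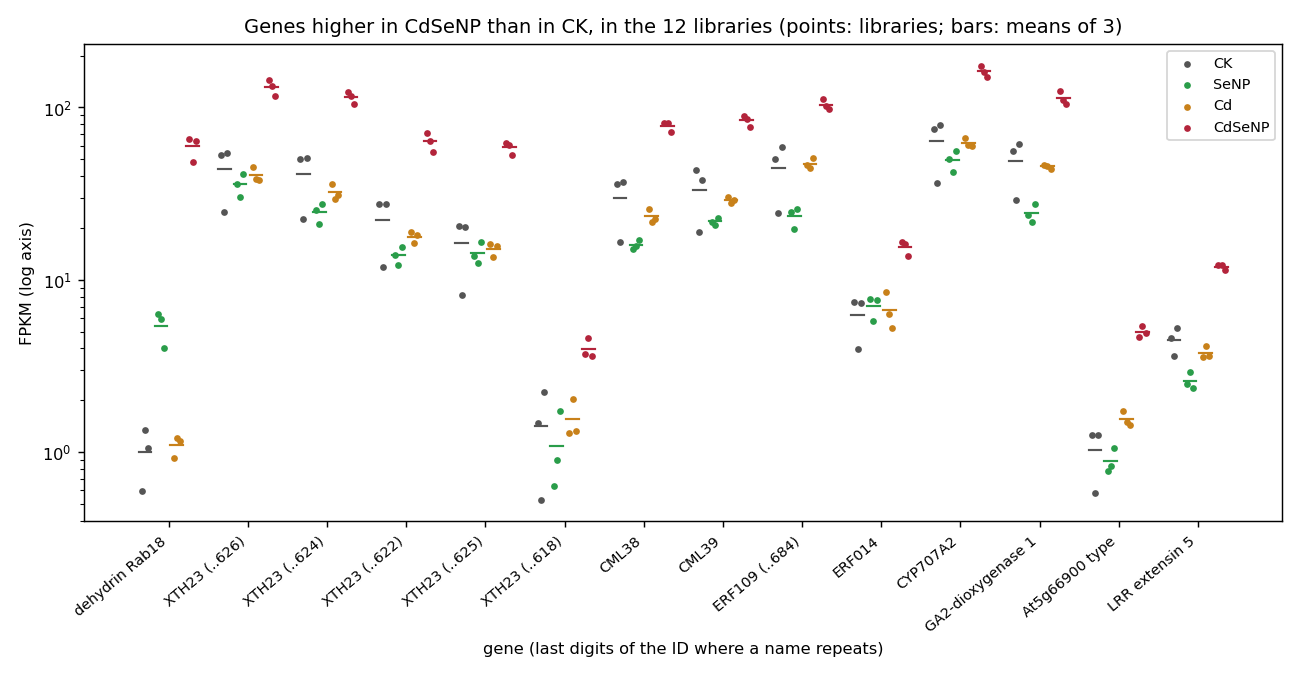
FPKM on a log axis for 14 genes that were higher in CdSeNP, in the 12 libraries, with points for libraries, bars for the means of 3 and colours for the groups. The CdSeNP points lie above the points of the other 3 groups for each gene shown, and 1 CK point lies well below the other 2 for the XTH23, CML and ERF109 genes.

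DNA replication genes were higher in 21 of 22 listed members, with a median log2 of 1.66 beside 1.38 for all higher genes, and all 12 core histones were higher, with a median of 1.29. These genes are used when cells copy their DNA. The MCM proteins form the helicase that opens DNA, and MCM5 (LOC111908347) measured 0.67, 2.81 and 1.04 FPKM in CK and 4.44, 6.88 and 6.69 FPKM in CdSeNP. The sliding clamp PCNA (LOC111919730) measured 0.64, 2.36 and 0.89 FPKM in CK and 3.43, 5.52 and 4.45 FPKM in CdSeNP. Origin recognition complex subunit 6 (LOC111896106) measured 0.154, 0.526 and 0.0943 FPKM in CK and 1.18, 1.52 and 1.35 FPKM in CdSeNP. In all 3, CK 2 was well above the other controls and below every CdSeNP library.

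The authors' deposited table gave MCM5 log2 1.92 with adjusted p 0.015 and PCNA log2 1.71 with adjusted p 2.9e-04, and the computed SEs were 0.61 and 0.39. The catalytic subunit of DNA polymerase alpha (LOC111876728), which starts new strands, was at 0.266, 0.652 and 0.362 FPKM in CK and 0.985, 1.24 and 1.42 FPKM in CdSeNP. Histone H3.2 (LOC111881095), a core packaging protein, was at 1.55, 4.27 and 1.06 FPKM in CK and 6.73, 7.44 and 7.39 FPKM in CdSeNP, and histone H4 (LOC111909605) at 15.3, 26.3 and 10.9 FPKM in CK and 35.3, 39.6 and 39.9 FPKM in CdSeNP. Histone genes exist in near-identical copies, so the levels of single ones are uncertain. The 1 replication member that was lower, LOC111906130, is described as an RNA-binding protein of heterochromatin assembly.

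Levels in Cd were 11.9 ± 2.3 FPKM for MCM5 and 9.35 ± 1.25 FPKM for PCNA. This PCNA gene was called lower in CdSeNP than in Cd, with a log2 of -1.02 (adjusted p 2.4e-10 in the authors' deposited table), which is close to the limit. MCM5 and the other listed PCNA gene (LOC111916510) were not called between CdSeNP and Cd. SeNP alone stood at 5.39 ± 1 FPKM for MCM5 and 4.43 ± 0.373 FPKM for PCNA. The epidermal gene protodermal factor 1 (LOC111914646), a marker of young surface cells in Arabidopsis, showed a like order, with 1.02, 5.48 and 2.05 FPKM in CK, 9.89, 14.3 and 12.3 FPKM in CdSeNP, 27 ± 5.51 FPKM in Cd and 9.65 ± 1.38 FPKM in SeNP. Between SeNP and Cd 4 of the 22 replication members and 0 of the 12 histones were called, the 4 higher in Cd, beside 1.51% of all genes tested that were called higher in Cd. Histone H4 (LOC111909605) and histone H3.2 (LOC111881095) were each called higher than CK both in Cd and in SeNP.

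CK 2 lay on the side of CdSeNP for all 33 of the higher replication and histone genes, with a median place of 0.65 for replication and 0.76 for histones. The summed level of the 15 listed markers of dividing cells was 43.1, 107 and 38.3 FPKM in CK 1 to CK 3 and 138.6 to 168.7 FPKM in CdSeNP. Refits without CK 2 left all 21 replication and all 12 histone calls. Without CK 1 they left 4 and 0, without CK 3 they left 2 and 0, and without CdSeNP 1, 2 or 3 they left 6, 3 and 4 replication calls and 0 histone calls. An edgeR refit with all 6 libraries left 10 of 21 and 1 of 12.

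**Figure D5:**
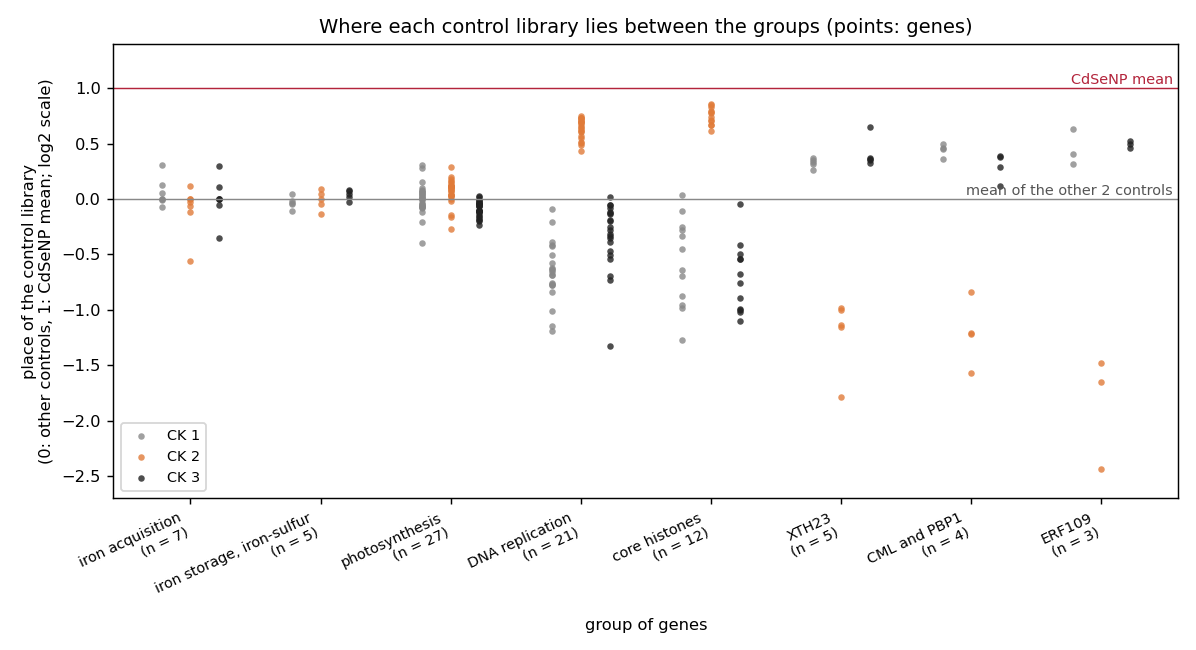
Each point is 1 gene in 1 control library, placed on a log2 scale that is 0 at the mean of the other 2 controls and 1 at the CdSeNP mean, for 8 groups of genes. CK 2 lies between -0.56 and 0.29 for iron and photosynthesis genes, at 0.44 to 0.86 for replication and histone genes, and at -2.44 to -0.84 for XTH23, CML and PBP1 and ERF109 genes.

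The largest increase was that of a gene for a secreted peptide, and genes with seed protein names were also high on the list. The epidermal patterning factor-like gene EPFL1 (LOC111910137, chromosome 5, 291153223 to 291155217), whose family of small secreted signals guides stomatal patterning and growth, had no counts in CK or SeNP. It measured 15.7, 16.4 and 16.1 FPKM in CdSeNP and 18.7 ± 0.953 FPKM in Cd, at least 749.5-fold over a floor of 3 counts for the CdSeNP libraries against CK. Oleosin L (LOC111905845), a coat protein of oil bodies, was at 1.37, 0.795 and 1.4 FPKM in CK and 37.2, 40.1 and 37 FPKM in CdSeNP. A vicilin-like seed storage protein gene (LOC111919377) was at 0.249, 0.469 and 0.35 FPKM in CK and 15.7, 17.6 and 17.7 FPKM in CdSeNP. The CK and CdSeNP libraries of these genes were far apart.

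The vicilin-like gene was also called between the cadmium groups. It stood at 36.9 ± 2.47 FPKM in Cd, and the authors' deposited table gave CdSeNP a log2 of -1.07 over Cd (adjusted p 9.2e-49). Oleosin L stood at 55.7 ± 1.83 FPKM in Cd and 0.929 ± 0.169 FPKM in SeNP. Another gene with a seed protein name, vicilin Cor a 11 (LOC111921670), was lower, at 175, 123 and 171 FPKM in CK and 36.5, 31 and 35.3 FPKM in CdSeNP (in the authors' deposited table log2 -2.28 with adjusted p 1.2e-47, and the computed SE was 0.15). Each group was wholly on one side. The seed storage list thus held 2 higher and 2 lower genes. Its other lower gene was 13S globulin seed storage protein 1 (LOC111877984, log2 -1.09 in the authors' deposited table).

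Ethylene genes split, with 7 higher and 6 lower. The lower ones include ACC synthase 3 (LOC111900308), which makes the ethylene precursor, at 6.96, 4.89 and 7.14 FPKM in CK and 2.95, 1.92 and 2 FPKM in CdSeNP. The ethylene-responsive factor ABR1 (LOC111919520) was lower at 2.74, 1.92 and 2.23 FPKM in CK and 0.439, 0.306 and 0.467 FPKM in CdSeNP. The 7 higher genes are all transcription factors with ethylene-responsive names, and refits without 1 library left 0 to 3 of their calls but 4 to 6 of the 6 lower ones. With all 6 libraries, edgeR already left only 3 of the 7 higher calls, and all 6 lower ones.

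Auxin genes were higher in 4 and lower in 5 of 9, and 3 of the 5 lower calls were left without CdSeNP 1 and without CdSeNP 2. The lower ones are both PIN-LIKES 7 carriers, AUX/IAA repressors IAA6 and IAA15 and an auxin-induced 6B gene. IAA6 (LOC111918948) was at 17.7, 10.1 and 13.5 FPKM in CK and 3.48, 4.04 and 4.71 FPKM in CdSeNP, and PIN-LIKES 7 (LOC111915996) at 58, 54.8 and 56.5 FPKM in CK and 26.6, 23.5 and 27 FPKM in CdSeNP. Among the higher ones a GH3.1 auxin-conjugating enzyme (LOC111896378) was at 0.132, 0.181 and 0.117 FPKM in CK and 0.414, 0.903 and 0.814 FPKM in CdSeNP, against 1.59 ± 0.599 FPKM in Cd. No library overlapped between the groups for these genes.

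The abscisic acid list held 3 higher genes, which are Rab18, DREB1D and CYP707A2, and 4 lower genes. The lower ones are 2 receptor genes and 2 further abscisic acid 8'-hydroxylases, so the hydroxylases were split. The receptor PYL4 gene LOC111879857 was at 49.6, 36.5 and 47.8 FPKM in CK and 20.5, 22.5 and 21.4 FPKM in CdSeNP, and its copy LOC111919686 at 3.03, 1.39 and 1.82 FPKM in CK and 0.732, 0.561 and 0.552 FPKM in CdSeNP. The hydroxylase gene LOC111880314 was at 9.26, 9.36 and 9.26 FPKM in CK and 4.78, 4.96 and 4.84 FPKM in CdSeNP, and LOC111908842 at 4.16, 4.52 and 5.73 FPKM in CK and 1.99, 1.96 and 2.04 FPKM in CdSeNP. All 4 lower calls remained in each refit without 1 library, and of the 3 higher ones that of Rab18 alone was left without CdSeNP 1. The call of LOC111880314, with log2 -1.02 in the authors' deposited table, ended with library totals. Outside the list, the RD22 gene LOC111889608, named for a response to drying, was at 96.6, 68.1 and 85.1 FPKM in CK and 23.7, 18.7 and 26.2 FPKM in CdSeNP, and a neighbouring RD22 gene LOC111889614 at 14.7, 14.2 and 14.8 FPKM in CK and 5.08, 5.52 and 4.95 FPKM in CdSeNP. Both RD22 genes were thus lower while dehydrin Rab18 was higher, with no overlap in any of the 3.

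Both listed gibberellin synthesis genes were lower, with gibberellin 20-oxidase 1 (LOC111904022) at 10.8, 8.99 and 11.1 FPKM in CK and 5.05, 5.03 and 4.28 FPKM in CdSeNP. Clock and light signalling genes were lower in 5 of 7. CONSTANS (LOC111895464), a day-length factor, was at 61.2, 45.1 and 57.9 FPKM in CK and 22.7, 20 and 22.5 FPKM in CdSeNP. The clock coactivator LNK1 (LOC111899524) was at 12.6, 7.77 and 11.3 FPKM in CK and 4.55, 3.77 and 4.09 FPKM in CdSeNP. The clock repressor APRR1 (LOC111912182), known as TOC1 in Arabidopsis, was higher at 5.78, 5.92 and 5.39 FPKM in CK and 13.3, 12.5 and 12.4 FPKM in CdSeNP (in the authors' deposited table log2 1.07 with adjusted p 7.0e-22, and the computed SE was 0.11). Time of day at sampling is not given in the labels.

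Cell wall genes other than the xyloglucan cluster were mostly lower, and the list as a whole held 8 higher and 11 lower. Refits left 1, 4 and 5 of the 8 higher calls without CdSeNP 1, 2 and 3, and 6, 7 and 6 without CK 1, 2 and 3. They left 7, 8 and 10 of the 11 lower calls without CdSeNP 1, 2 and 3, and 6, 9 and 10 without CK 1, 2 and 3. With all 6 libraries, edgeR left 6 of the 8 higher and 10 of the 11 lower calls. Endoglucanase 6 (LOC111894312), a cellulose-cutting enzyme, was at 45.7, 45.6 and 44 FPKM in CK and 20.1, 21.5 and 23.1 FPKM in CdSeNP. A xyloglucan endotransglucosylase outside the cluster (LOC111897800) was lower, at 33, 28.2 and 42.4 FPKM in CK and 12.6, 11.8 and 12.7 FPKM in CdSeNP. Wax gene ECERIFERUM 26 (LOC111905151) was lower at 94, 65.7 and 93.3 FPKM in CK and 23.2, 18.4 and 21 FPKM in CdSeNP, with no overlap. A lipid-transfer protein gene (LOC111890404) was lower at 3.39, 2.8 and 4.2 FPKM in CK and 0.794, 0.9 and 1.73 FPKM in CdSeNP. Those 2 were the members matched by the epidermis marker words, with a summed level of 68.5 to 97.5 FPKM in CK and 19.3 to 24.0 FPKM in CdSeNP. The list for epidermis, cuticle and lipid transfer held 2 higher and 2 lower genes. Its higher genes are EPFL1 and a GDSL esterase gene (LOC111886847) at 1.45, 4.25 and 1.8 FPKM in CK and 6.38, 7.42 and 6.79 FPKM in CdSeNP. EPFL1 was also the 1 member that the guard cell marker words matched, by the name of its family alone. Protodermal factor 1, which is not on the list, was higher too. None of the markers of phloem, xylem or root was among the members, whose table shows called genes alone.

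Loci absent from RefSeq, with numbers of the authors' own, made up 50 of the members, and 33 of them were higher. Chromosome 5 holds 19 of the 50, and 16 of these were higher. Of the 33, 10 lie on chromosome 5 between 238471865 and 238707909, a stretch of 236 kb, with log2 values from 5.11 to 9.67. Stretches were sought among higher and lower members apart, so nothing is read from the shared direction of the 10. None of the 10 has a description. The locus at chromosome 5, 238550163 to 238550627 was at 0, 0.0793 and 0.0807 FPKM in CK and 13.8, 19.2 and 17.4 FPKM in CdSeNP. A locus a little before the stretch (chromosome 5, 238238514 to 238239246) was at 0.1, 0.352 and 0.205 FPKM in CK and 108, 132 and 122 FPKM in CdSeNP. Both were far apart between the groups. In Cd they stood at 19.6 ± 1.88 and 115 ± 1.87 FPKM, and in SeNP at 0.025 ± 0.0434 and 0.242 ± 0.0871 FPKM. Another such locus (chromosome 9, 81227994 to 81229087) was at 16.9, 10 and 18.5 FPKM in CK and 172, 162 and 158 FPKM in CdSeNP.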

How the data were processed

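Poly(A)-selected RNA of whole leaves was sequenced after Illumina TruSeq library preparation, per the labels' protocols. The submitters' processing notes name DESeq2 1.34.0, HISAT2 2.2.1, StringTie 2.2.1, Trimmomatic and fastp 0.23.0, with no roles. Which program counted, whether it used strand, and which genome build and annotation served are points not given in the sources used here. Each of the authors' deposited tables gives, per the file headers, raw read counts and FPKM of the libraries of 1 pair of groups. Log2 fold changes with raw and adjusted p-values, by the authors, stand beside them in the deposited tables. Each table holds only genes past both limits, so no fit over all genes was possible, the planned count test on every gene could not be run, and the calls reported are the authors'.

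How many genes the authors tested follows from adjusted p, raw p and rank. Library totals were recovered by comparing counts with FPKM in genes of 200 counts or more. The authors' size factors were recovered by least squares from counts and fold changes. Standard errors, which the deposited tables do not hold, were computed as the fold change divided by the normal quantile of its raw p. Refits of the listed genes used edgeR 4.0.16, DESeq2 1.42.0 and limma 3.58.1 in R 4.3.3, after tests on simulated data, and called a gene at the raw p that matches the authors' adjusted limit (0.00734 for CdSeNP against CK, 0.0105 for SeNP against Cd) and an absolute log2 over 1. Because these genes were selected for differing, refits show only which calls end. Groups and replicate numbers came from the labels. The series text calls the replicates biological. An exact permutation test, 3 against 3, has a smallest p of 0.1 and was left out. Floors and bounds cover counting error only.

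Functions came from 36 word lists matched to the RefSeq, NR and Swiss-Prot descriptions, of the last the recommended name alone. All 538 RefSeq IDs among the members had the same start and end in the RefSeq annotation Lsat_Salinas_v11, and coordinates run over the entire gene, as deposited. Gene sequences were not used here. Genes were named by rule: the 8 largest increases and decreases with a description, at least 5 FPKM and no overlap, the 2 higher and 2 lower genes of smallest adjusted p per list of at least 3 members, the 5 highest in FPKM, and the 3 largest differences each way between CdSeNP and Cd. This gave 94 genes, of which the text describes a part, and another 76 were taken up after their values were seen, among them the xyloglucan, MCM, ferritin and desaturase families and the added loci. The members, lists and rules were chosen with earlier results of these data known. Alternatives were the refits, library totals, a replicate block, low-count and stricter limits, other annotations for the lists, leaving out each library, and limma on log2(FPKM + 1) and log2(FPKM + 0.1).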

Additional observations from a re-analysis of the deposited data

How the results depend on the processing

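The counts of 285 higher and 303 lower genes became 209 and 285 in an edgeR refit of the listed genes, 256 and 294 with DESeq2, 285 and 245 with library totals under the authors' p, and 229 and 221 with edgeR and library totals. They were 207 and 269 at an adjusted p under 0.01 and 60 and 37 at an absolute log2 of at least 2. EdgeR refits without 1 library left 129 to 233 higher and 219 to 288 lower genes, under an unchanged p limit. Higher genes numbered 129, 130 and 132 without CdSeNP 1, 2 and 3, and 168, 233 and 148 without CK 1, 2 and 3. Library totals moved the log2 fold changes of CdSeNP over CK by 0.088 and those of SeNP over Cd by -0.10. Members called between SeNP and Cd numbered 171, and 155 to 166 without 1 library, 162 to 171 in the other refits, 163 at the stricter p and 61 at an absolute log2 of at least 2. These settings for SeNP against Cd were added after seeing the data.

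The replicate number as a block gave 223 higher and 275 lower genes and 168 members called between SeNP and Cd. Deviations of same-numbered CK and CdSeNP libraries correlated over genes at 0.37, 0.22 and -0.16, so the numbers were not taken to pair the samples. CdSeNP 3 correlated best with CK 2, at 0.24.

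Of 170 named genes none turned direction in any setting, and 122 to 151 kept their call in the refits without 1 library. The genes were listed for a log2 beyond 1 in these same libraries, and some settings reuse the authors' fold changes. Nothing is therefore read from the lack of turns. The refits saw only genes already called, so they show which calls end and not which would be gained.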

Other observations

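Of 9 phenylpropanoid and flavonoid genes 7 were lower and 2 higher. An isoflavone reductase homolog (LOC111898507) was at 21.4, 26.4 and 23 FPKM in CK and 3.88, 3.99 and 5.22 FPKM in CdSeNP, with 13.7 ± 1.59 FPKM in Cd and 4.7 ± 0.898 FPKM in SeNP. SeNP alone was thus near CdSeNP for this gene, and the authors' deposited tables called it lower in CdSeNP than in Cd (log2 -1.60) and lower in SeNP than in Cd (log2 -1.45). Phenylalanine ammonia-lyase (LOC111894107), the entry enzyme of the pathway, was at 33, 33.7 and 40 FPKM in CK and 17.2, 18.7 and 16.8 FPKM in CdSeNP. EdgeR refits left 4 of the 7 lower calls without CdSeNP 1, CdSeNP 2 or CK 3, 5 without CdSeNP 3 or CK 1, and 6 without CK 2. Benzoate carboxyl methyltransferase (LOC111906005), an enzyme of scent esters, was at 1.01, 2.17 and 2.64 FPKM in CK and 0.123, 0.386 and 0.321 FPKM in CdSeNP, and at 1.45 ± 0.589 FPKM in Cd and 0.318 ± 0.0377 FPKM in SeNP. Jasmonate-induced oxygenase 2 (LOC111901270), which inactivates jasmonate in Arabidopsis, was at 11.2, 8.45 and 12.9 FPKM in CK and 3.25, 3.91 and 3.67 FPKM in CdSeNP.

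Of 17 receptor kinases and immune receptors 6 were higher and 11 lower. A leucine-rich repeat receptor kinase gene (LOC111912695) was at 1.85, 1.84 and 1.98 FPKM in CK and 0.175, 0.142 and 0.152 FPKM in CdSeNP, and Cd alone stood at 0.502 ± 0.0703 FPKM. The shade-response homeobox gene HAT4 (LOC111880926) was at 129.8, 116 and 131 FPKM in CK and 52.3, 46.9 and 47.8 FPKM in CdSeNP and was called in no other comparison. The factor bHLH87 (LOC111904655) was at 33.1, 22.5 and 32.4 FPKM in CK and 8.09, 8.46 and 8.16 FPKM in CdSeNP. The F-box gene PP2-B15 (LOC111905931) was at 6.69, 3.79 and 6.51 FPKM in CK and 18.7, 18.5 and 18.8 FPKM in CdSeNP, at 29.7 ± 8.75 FPKM in Cd and at 1.42 ± 0.446 FPKM in SeNP. Cysteine proteinase inhibitor B (LOC111896904) was at 1.84, 2.35 and 2.09 FPKM in CK and 7.59, 9.85 and 8.51 FPKM in CdSeNP. A gene without a description, LOC111919656, was at 6.12, 5.09 and 5.93 FPKM in CK and 61.5, 62.5 and 60.5 FPKM in CdSeNP, with 60.6 ± 0.909 FPKM in Cd and 4.05 ± 0.397 FPKM in SeNP.

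For 4 members 1 library lay over 8-fold from both others of its group. A gene named for chloroplast ribosomal protein L2 (LOC128126385) was at 0.23, 0.231 and 0.469 FPKM in CK and 0.703, 15.2 and 14.4 FPKM in CdSeNP, and at 6.87, 15.2 and 16.7 FPKM in SeNP and 0.945, 0.598 and 0.346 FPKM in Cd. CdSeNP 1 was thus near the controls. A gene named programmed cell death protein 2-like (LOC128132225), which the mitosis list holds only for its words, was at 4.1, 0.12 and 4.2 FPKM in CK and 0.131, 0.137 and 0.0946 FPKM in CdSeNP, so CK 2 was at the CdSeNP level. Eupatolide synthase (LOC111891405), named for an enzyme of sesquiterpene lactones, was at 0.0207, 0.125 and 0.0634 FPKM in CK and 0.0453, 1.02 and 0.906 FPKM in CdSeNP. A locus absent from RefSeq (chromosome 5, 238507976 to 238508474) was at 0.368, 0 and 0 FPKM in CK and 3.62, 4.8 and 5.19 FPKM in CdSeNP.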
